A study of Arabidopsis thaliana with 12 samples.

Results

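*MIRNA* genes are transcribed by RNA polymerase II into capped and polyadenylated primary transcripts, in which a hairpin holds the microRNA (miRNA). In Arabidopsis the nuclease DCL1 cuts the hairpin out with the help of HYL1 and of the zinc finger protein SERRATE (SE), and the cap-binding complex (CBC), made of CBP20 and CBP80, sits on the cap of the same transcript. The mature miRNA is then loaded onto AGO1 and guides it to complementary messenger RNAs. Because the hairpin is destroyed when it is cut, reads on it in poly(A) RNA are taken here as transcripts in which it is still whole. The mature miRNA itself is not measured by this assay.

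The level of 39 *MIRNA* loci was followed in WT, *se-1*, *cbp20* and *cbp80* seedlings. The loci are the rows of the count table, 39 of 32833 genes, that carry the identifiers of families miR156 to miR173, miR319, miR390, miR393, miR398 and miR400, and they fall into 23 families. Most of these families are shared by many land plants, but miR158, miR161, miR163, miR173 and miR400 are known from Arabidopsis and its relatives, so that the loci are called here by their family numbers and not as conserved. What the table counts at each of them is a single exon of 85 to 331 bases, with a median of 124, which is close to the hairpin and leaves most of the primary transcript outside.

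Poly(A) RNA was sequenced from whole Col-0 seedlings grown for 16 days in constant light without treatment, with 3 libraries of each genotype, each from another pool of plants. The mutants are *se-1* in the gene for SE, *cbp20* (*cbp20-1* in the study's methods) and *cbp80* (its allele is not given in the sources used here). SE is essential and *se-1* is a partial loss of function, so that it does not show the complete absence of the protein. WT is Col-0 without any of these alleles, and all 4 groups share age, medium and light.

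The libraries held 18565569 to 27068656 counted read pairs each, so that 3 counts, taken here as the floor of detection, are worth 0.111 to 0.162 CPM, the unit of counts scaled to a library total of 1e6. All CPM below are also scaled by TMM, edgeR's correction for library size and composition, and intervals and floors that come from counts cover counting error only. *CBP20* was lower in *cbp20* by a log2 fold change of -1.55, whereas *SE* in *se-1* (-0.06, edgeR adjusted p = 0.491) and *CBP80* in *cbp80* (-0.16, adjusted p = 0.174) were not called, so that their RNA does not check those labels. All 4 shoot markers and all 5 root markers had at least 10 counts in every library. The summed level of 5 flower markers was 1.64 to 2.04 CPM in WT, 4.21 to 4.84 in *se-1*, 2.09 to 2.53 in *cbp20* and 3.06 to 3.95 in *cbp80*, with 1 of them at 0 in all *cbp20* libraries. That of 5 seed storage markers was 0.0453 to 0.222 CPM in WT, where 3 of them were at 0, against up to 2.67 CPM in *se-1*, 0.822 in *cbp80* and 2.39 in *cbp20*. The part of these tissues in the results below was not tested. In RNA of whole seedlings, fewer cells that transcribe a locus and less RNA of it per cell cannot be told apart.

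The mature miRNAs of the loci on which the results turn are shown 5′ to 3′ with the seed, bases 2 to 8, in capitals. They were read from RefSeq's annotation and sequence of TAIR10.1, in which all 39 loci have the start and end of the count table. The loci of a family often encode the same miRNA, and its locus of origin shows only in the primary transcript. The first 3 belong to miRNAs whose primary transcripts made up most of the signal in *se-1*:
miR156c-5p: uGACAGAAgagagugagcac
miR157c-5p: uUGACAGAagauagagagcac
miR168a-5p: uCGCUUGGugcaggucgggaa
The next 5 come from loci that differed most between *se-1* and the CBC mutants:
miR393b-5p: uCCAAAGGgaucgcauugaucc
miR172b-3p: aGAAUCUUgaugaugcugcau
miR319a: uUGGACUGaagggagcucccu
miR166a-3p: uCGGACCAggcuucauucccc
miR166b-3p: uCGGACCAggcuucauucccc
The next 2 come from the loci that, of the 24 tested, were called higher in no mutant:
miR162a-3p: uCGAUAAAccucugcauccag
miR163: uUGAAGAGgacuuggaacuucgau
The last 5 are shown for pairs of close sequence whose loci differed in level, and for a called locus without a count in WT:
miR159a: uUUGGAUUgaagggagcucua
miR159b-3p: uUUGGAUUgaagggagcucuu
miR170-3p: uGAUUGAGccgugucaauauc
miR171a-3p: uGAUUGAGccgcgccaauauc
miR390a-5p: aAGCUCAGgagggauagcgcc

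The 5p arms of all 6 *MIR156* loci are identical, as are those of all 3 *MIR157* loci, and the seed of miR157 is that of miR156 shifted by 1 base. miR159a and miR159b-3p differ by A21U, counted from the 5′ end of the first named, and share their seed. miR170-3p and miR171a-3p share a seed and differ by U12C and U14C. miR165a-3p and miR166a-3p share a seed and differ by C17U.

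Together the 39 loci held 27.9 ± 2.78 CPM (SD, n = 3) in WT and 222.5 ± 3.14 CPM in *se-1*, with 131.1 ± 6.18 in *cbp80* and 94.6 ± 2.60 in *cbp20*, and the 4 ranges were apart from each other. *MIR157C* was the first contributor by summed counts in every genotype, with 26.4% of the sum in WT and 30.0% in *se-1*. The rest of the order changed: *MIR163* and *MIR162A* gave 12.6% and 11.1% of the sum in WT, while *MIR168A* and *MIR156C* took 13.7% and 11.1% in *se-1*. Per kb of counted exon, the WT level was highest at *MIR159B* (35.3 CPM per kb) and *MIR157C* (34), followed by *MIR162A* (22.2), *MIR156C* (11.7) and *MIR163* (10.6). In *se-1* the same measure put *MIR157C* (307.2 CPM per kb), *MIR156C* (237.6) and *MIR168A* (220.4) first.

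**Figure D1:**
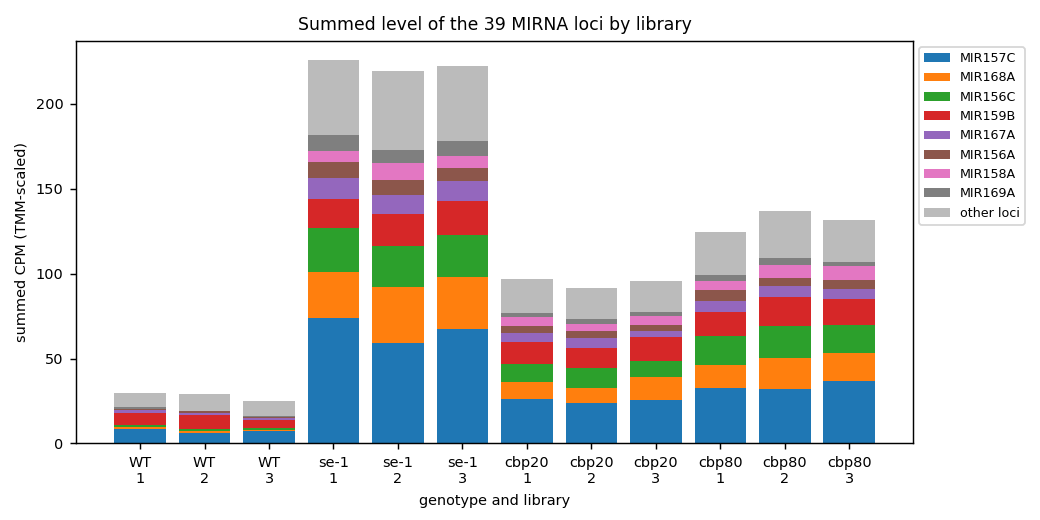
Summed level of the 39 *MIRNA* loci in CPM (vertical axis) in each of the 12 libraries (horizontal axis, genotype and library number), with the 8 loci of highest mean level in colour and the other loci in grey. The 3 WT bars reach 24.8 to 30.0 CPM and the 3 *se-1* bars 219.5 to 225.8, with both CBC mutants in between.

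Each mutant was compared with the same 3 WT libraries, so the 3 comparisons are not independent. A gene entered a comparison where 3 or more of its 6 libraries had 10 counts or more. It was tested with edgeR's quasi-likelihood test and called at a Benjamini-Hochberg adjusted p under 0.05, the adjustment running over every gene in the comparison. In *se-1*, 21 of the 23 loci tested were higher and 1 was lower, where 17.6% of all tested genes were called higher and 16.2% lower. In *cbp20*, 13 of 16 were higher and 0 lower (background 10.2% higher and 9.48% lower). At an unadjusted p under 0.05, 1 locus was lower in *cbp20*, *MIR163*, and DESeq2 called 0 lower. In *cbp80*, 16 of 18 were higher and 1 lower (background 20.1% higher and 18.6% lower). Many of these loci passed the filter only through the mutant libraries and so had to be higher there. For such loci, the calls and p-values against WT from the filtered fit are no support by themselves. Of the 8 loci with at least 10 counts in every WT library, 6 were higher in each of the 3 mutants: *MIR156A*, *MIR156C*, *MIR157C*, *MIR159B*, *MIR167A* and *MIR168A*. The others were *MIR162A* and *MIR163*.

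**Figure D2:**
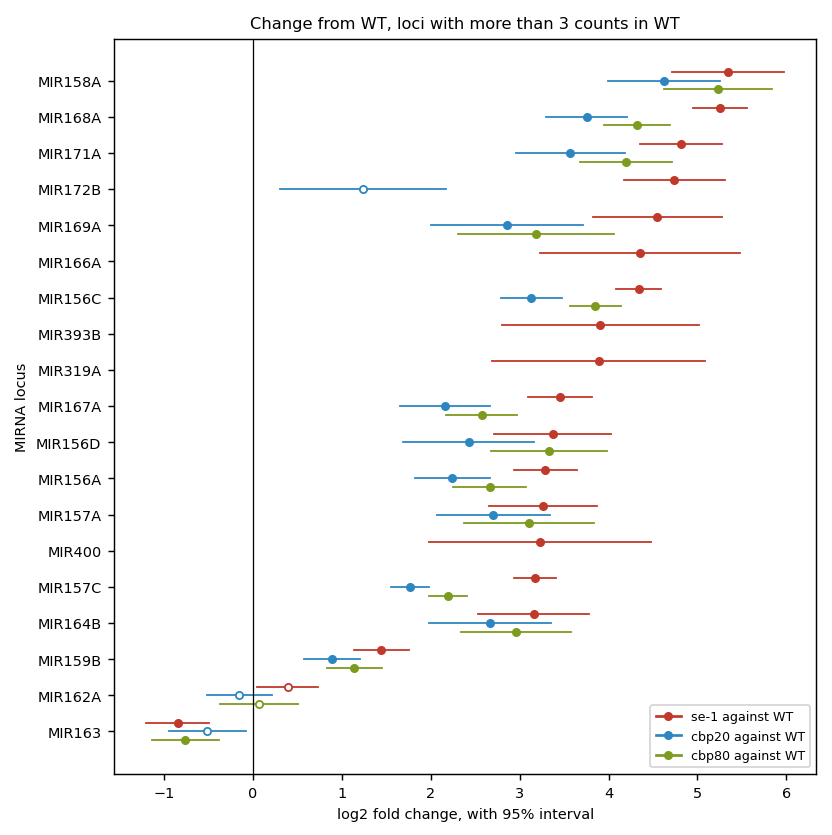
Log2 fold change of each mutant against WT (horizontal axis) with its 95% interval for the tested loci that had more than 3 counts in WT in all, ordered by *se-1*. Filled points were called by edgeR and open points were not. *MIR162A* lies around 0, from -0.15 to 0.39, and *MIR163* below it in all 3 mutants.

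Loci of miR156 and miR157, which repress *SPL* transcription factor genes and hold plants in the juvenile phase, rose in all 3 mutants at the 5 loci with enough counts. *MIR156C* (AT4G31877, chromosome 4 from 15415418 to 15415521 on TAIR10, minus strand) had 1.11, 1.42 and 1.13 CPM in WT, 25.6, 24.2 and 24.4 in *se-1*, 11, 11.7 and 9.34 in *cbp20*, and 17.4, 19.1 and 16.6 in *cbp80*. The 4 groups did not overlap and stood in the order *se-1*, *cbp80*, *cbp20*, WT. Its log2 fold changes were 4.34 in *se-1* (standard error 0.12), 3.13 in *cbp20* (0.16) and 3.85 in *cbp80* (0.13), with edgeR adjusted p-values of 2.43e-10, 1.98e-08 and 1.38e-10. *MIR157C* (AT3G18217, chromosome 3 from 6244500 to 6244716) had 8.53, 6.45 and 7.16 CPM in WT, 73.8, 59.1 and 67.1 in *se-1*, 26.1, 23.8 and 25.5 in *cbp20*, and 32.6, 32.2 and 36.7 in *cbp80*. Here, too, no libraries of different genotypes overlapped, but its changes of 3.17, 1.77 and 2.20 were smaller than those of *MIR156C*. 

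*MIR156A* had 0.844, 1.04 and 0.815 CPM in WT, 9.58, 8.88 and 7.97 in *se-1*, 4.48, 4.56 and 3.70 in *cbp20*, and 6.69, 5.08 and 5.43 in *cbp80*, or log2 fold changes of 3.29, 2.24 and 2.66. *MIR156D* had 0.222, 0.190 and 0.498 CPM in WT, 2.92, 3.70 and 2.94 in *se-1*, 1.36, 1.76 and 1.93 in *cbp20*, and 2.64, 3.59 and 3.08 in *cbp80*. Its *se-1* and *cbp80* libraries overlapped, with a difference of 0.04 on the log2 scale and a 95% interval from -0.37 to 0.45. *MIR157A* had 0.267, 0.569 and 0.272 CPM in WT, 3.93, 3.70 and 2.99 in *se-1*, 2.72, 2.35 and 2.09 in *cbp20*, and 2.23, 2.98 and 4.24 in *cbp80*. Its *cbp80* libraries overlapped those of both other mutants, while *se-1* lay above *cbp20*. *MIR157B*, which lies 7786 bases from *MIR157A* and encodes the same miRNA, had only 6 counts over the WT libraries against 29 in *se-1*, 30 in *cbp80* and 20 in *cbp20*, too few to pass the filter against WT. In the fit without a filter *MIR157B* was called higher in *se-1* (edgeR adjusted p = 0.00519) and in *cbp80* (0.00594), and not in *cbp20*. *MIR156E* had 0 to 4 counts in each of the 12 libraries with no group above another. *MIR156B* and *MIR156F* had 0 counts throughout, because the counting left out read pairs that fall on more than one gene, and their whole exons lie within exons of AT4G30975 and AT5G26146.

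miR168 targets *AGO1* and miR162 targets *DCL1*, which makes both part of feedback on the miRNA pathway, and their loci moved apart. *MIR168A* (AT4G19395, chromosome 4 from 10578635 to 10578772) had 0.933, 0.711 and 0.725 CPM in WT, 27.2, 33.0 and 31.0 in *se-1*, 9.91, 8.98 and 13.6 in *cbp20*, and 13.4, 18 and 16.3 in *cbp80*. Every mutant library was far above every WT library, and among the genotypes only *cbp20* and *cbp80* overlapped. The log2 fold changes were 5.26 (standard error 0.14), 3.75 (0.21) and 4.32 (0.17), and their edgeR adjusted p-values 2.43e-10, 5.22e-08 and 3.67e-10. *MIR168B*, whose miR168-5p is the same, had 0 counts in WT against 10 in *se-1*, 8 in *cbp80* and 1 in *cbp20*. That is at least 3.44-fold higher in *se-1* and at least 2.56-fold higher in *cbp80*, against a floor of 3 counts over the WT libraries together. *MIR168B* did not pass the filter. In the fit without a filter it was called higher in *se-1* (edgeR adjusted p = 0.0224) and in *cbp80* (0.0351), and not in *cbp20*.

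*MIR162A* (AT5G08185, chromosome 5 from 2634905 to 2635044) had 2.84, 3.56 and 2.94 CPM in WT, 3.63, 4.53 and 4.01 in *se-1*, 2.97, 2.98 and 2.36 in *cbp20*, and 3.21, 4.24 and 2.34 in *cbp80*. The *se-1* libraries lay above the WT libraries by a narrow margin and those of the CBC mutants among and around them. The log2 fold changes were 0.39 in *se-1* (95% interval 0.05 to 0.73, edgeR adjusted p = 0.0759), -0.15 in *cbp20* (-0.52 to 0.21, adjusted p = 0.592) and 0.06 in *cbp80* (-0.38 to 0.50, adjusted p = 0.840). These intervals leave room for a rise in *se-1* of at most 0.73, where *MIR168A* rose by 5.26. With 64 to 75 counts in each WT library, the locus was counted more deeply in WT than *MIR168A*, which had 15 to 21.

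The genes these miRNAs act on, and the other proteins of the pathway, were measured as well. Of 14 pathway genes, all tested, 5 were higher and 0 lower in *se-1*, 1 was higher and 1 lower in *cbp20*, and 1 was higher and 1 lower in *cbp80*, where 17.6%, 10.2% and 20.1% of all tested genes were higher and 16.2%, 9.48% and 18.6% lower. *DCL1* had 57.8 to 64.0 CPM in WT, 92.6 to 103.4 in *se-1*, 57.0 to 63.9 in *cbp20* and 56.7 to 62.4 in *cbp80*, log2 fold changes of 0.71, called in *se-1*, and of at most 0.01 in the CBC mutants, not called. *AGO1* had 213.0 to 217.9 CPM in WT, 277.5 to 320.4 in *se-1*, 204.4 to 209.2 in *cbp20* and 188.4 to 195.1 in *cbp80*, with log2 fold changes of 0.45, -0.06 and -0.17, of which the first and the last were called. Direct tests of the mutants put *DCL1* higher in *se-1* than in *cbp20* by 0.70 and than in *cbp80* by 0.71, and *AGO1* by 0.51 and 0.61. *HYL1*, *HEN1*, *HST*, *DDL*, *TGH*, *PRL1* and *SDN1* were not called in any mutant. The remaining calls were *CPL1*, a phosphatase that acts on HYL1 and was higher in all 3 mutants, *CBP80* and *CDC5* in *se-1*, and *CBP20* in *cbp20*. The median log2 fold change of the 14 genes was 0.14, 0.04 and 0.01 in the 3 mutants, beside about 0.00 for all tested genes.

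miR163 acts on methyltransferase genes and, at 24 bases, is longer than most miRNAs. *MIR163* (AT1G66725, chromosome 1 from 24884066 to 24884396) was the only locus lower than WT. It had 3.51, 3.56 and 3.49 CPM in WT, 2.02, 1.71 and 2.14 in *se-1*, 3.27, 1.90 and 2.04 in *cbp20*, and 2.54, 1.72 and 1.97 in *cbp80*. All 9 mutant libraries were below the 3 WT libraries, and 1 *cbp20* library lay close under them. The log2 fold changes were -0.85 in *se-1* (standard error 0.16, edgeR adjusted p = 0.00164), -0.52 in *cbp20* (0.20, adjusted p = 0.0913) and -0.77 in *cbp80* (0.18, adjusted p = 0.00337). Without the first *cbp20* library, the value in *cbp20* was -0.84 and passed the threshold. No difference between mutants was called, the largest being -0.33 between *se-1* and *cbp20*, with an interval from -0.79 to 0.13. The counted exon of *MIR163* is the longest of the 39, with 331 bases.

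**Figure D3:**
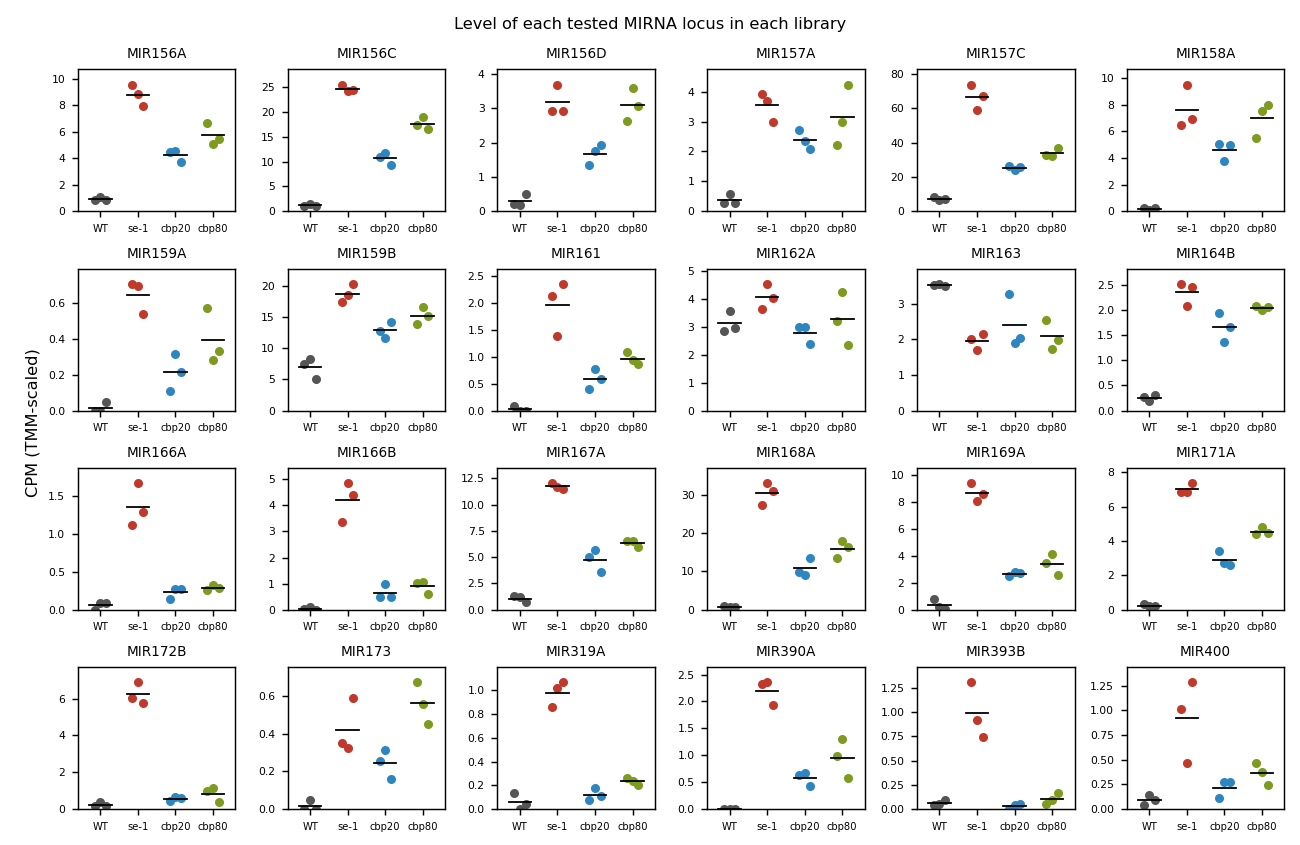
Level in CPM (vertical axes, each from 0) of the 24 loci tested in at least 1 comparison with WT, with 1 point per library, 3 per genotype, and a line at their mean. In most panels WT is lowest and *se-1* highest. At *MIR162A* both CBC mutants overlap WT, with *se-1* narrowly above WT, and *MIR163* has its 3 highest points in WT.

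Of the loci whose miRNAs act on regulators of development, those of miR164, miR167, miR169 and miR171 rose in all 3 mutants. *MIR167A*, whose miRNA targets the auxin response factor genes *ARF6* and *ARF8*, had 1.29, 1.19 and 0.725 CPM in WT, 12, 11.7 and 11.4 in *se-1*, 5.03, 5.64 and 3.54 in *cbp20*, and 6.53, 6.57 and 6.0 in *cbp80*. It was higher by 3.46, 2.16 and 2.57 on the log2 scale, and its groups were apart from each other. *MIR171A*, whose miRNA targets GRAS genes of the *HAM* group, had 0.311, 0.190 and 0.227 CPM in WT, 6.85, 6.84 and 7.38 in *se-1*, 3.41, 2.71 and 2.63 in *cbp20*, and 4.41, 4.80 and 4.44 in *cbp80*. The 4 groups again kept apart, with log2 fold changes of 4.82, 3.57 and 4.19 (edgeR adjusted p of at most 1.23e-06). *MIR170*, whose miRNA has the seed of miR171, had 1 to 7 counts in each library, with a mean of 0.151 CPM in WT and 0.264 in *se-1*. It did not pass the filter and was not called in the fit without a filter.

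*MIR164B*, whose miRNA targets *NAC* genes such as *CUC1* and *CUC2*, had 0.267, 0.190 and 0.317 CPM in WT, 2.52, 2.08 and 2.46 in *se-1*, 1.95, 1.35 and 1.66 in *cbp20*, and 2.07, 2.00 and 2.06 in *cbp80*. Its log2 fold changes of 3.16, 2.66 and 2.96 were close to each other, and no pair of mutants differed past the threshold, with a difference between *se-1* and *cbp80* of 0.20 and an interval from -0.18 to 0.58. *MIR164A* had 3 counts in WT against 23 in *se-1*, 32 in *cbp80* and 14 in *cbp20*, ratios of 7.90 (95% counting interval 2.39 to 41.1), 10.2 (3.20 to 52.2) and 4.37 (1.22 to 23.7), and did not pass the filter. In the fit without a filter *MIR164A* was called higher in *se-1* (edgeR adjusted p = 0.00578) and in *cbp80* (0.000605), and not in *cbp20*. *MIR169A*, whose miRNA targets *NF-YA* genes, had 0.80, 0.190 and 0.0906 CPM in WT, 9.37, 8.05 and 8.56 in *se-1*, 2.50, 2.80 and 2.74 in *cbp20*, and 3.47, 4.10 and 2.55 in *cbp80*. In WT 1 library was above the other two, but all 9 mutant libraries were higher than it. The log2 fold changes were 4.55, 2.85 and 3.18, or 5.90, 4.21 and 4.54 without the first WT library, and 6.2% of the bases of this exon are shared with AT3G13404.

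*MIR159B*, whose miRNA targets *MYB33* and related genes, changed least among the loci that rose. It had 7.55, 8.21 and 5.03 CPM in WT, 17.5, 18.5 and 20.4 in *se-1*, 12.7, 11.7 and 14.2 in *cbp20*, and 13.8, 16.7 and 15.1 in *cbp80*. The log2 fold changes were 1.44 (standard error 0.14), 0.89 (0.15) and 1.14 (0.14), with edgeR adjusted p-values of 8.73e-06, 0.000689 and 2.42e-05. *MIR159A*, whose miRNA differs only in its last base, had a single count in WT (0.0453 CPM in 1 library), 0.706, 0.694 and 0.535 CPM in *se-1*, 0.110, 0.316 and 0.215 in *cbp20*, and 0.570, 0.280 and 0.329 in *cbp80*. The ratio to WT was 40.2 in *se-1*, with a counting interval from 6.80 to 1628, and only that comparison passed the filter (edgeR adjusted p = 0.000217). It passed through the *se-1* libraries alone, so this p-value is no support by itself. In the fit without a filter *MIR159A* was also called higher in *cbp20*, by 3.35 (edgeR adjusted p = 0.0390), and in *cbp80*, by 4.22 (0.000644). In WT, then, *MIR159B* held 35.3 CPM per kb and *MIR159A* 0.0821, and in *se-1* 95.9 and 3.50.

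A group of loci rose far more in *se-1* than in either CBC mutant. *MIR172B* (AT5G04275, chromosome 5 from 1188207 to 1188301), whose miRNA targets *AP2*-like genes that delay flowering, had 0.178, 0.379 and 0.136 CPM in WT, 6.05, 6.89 and 5.78 in *se-1*, 0.440, 0.632 and 0.591 in *cbp20*, and 0.985, 1.16 and 0.370 in *cbp80*. The *cbp20* libraries and 2 of the *cbp80* libraries lay above WT, the other *cbp80* library lay within its range, and *se-1* was several times higher than all of them. The log2 fold change was 4.74 in *se-1* (standard error 0.26, edgeR adjusted p = 6.35e-08) and 1.24 in *cbp20* (0.43, adjusted p = 0.0618), and too few *cbp80* libraries reached 10 counts for a test. In the fit without a filter it was called higher in *cbp80*, by 1.82 (edgeR adjusted p = 0.00336). Without the second WT library, the value in *cbp20* was 1.76 and passed the threshold. *MIR172A*, which encodes the same 3p miRNA, had a single WT count against 28 in *se-1*, 10 in *cbp80* and 5 in *cbp20*, and did not pass the filter. In the fit without a filter *MIR172A* was called higher in *se-1* (edgeR adjusted p = 0.000378), and not in *cbp20* or *cbp80*. The summed flower markers and the means of *MIR172B* stood in the order *se-1*, *cbp80*, *cbp20*, WT. So did the means of 20 of the 22 loci called higher in at least 1 mutant, *MIR172B* among them. The part of the flower markers was not tested.

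*MIR393B* (AT3G55734, chromosome 3 from 20691647 to 20691806) carries the miRNA of the auxin receptor genes *TIR1* and *AFB2*. It had 0.0444, 0.0474 and 0.0906 CPM in WT, 1.31, 0.925 and 0.749 in *se-1*, 0, 0.0451 and 0.0537 in *cbp20*, and 0.0518, 0.0932 and 0.164 in *cbp80*. The *cbp20* and *cbp80* libraries, with 0 to 4 counts each, could not be told from WT at this depth, whereas every *se-1* library had at least 14. Its log2 fold change in *se-1* was 3.91 (standard error 0.51, edgeR adjusted p = 8.39e-05). *MIR393B* passed the filter only through the *se-1* libraries, so this p-value is no support by itself. *MIR393A* had 0 counts in WT and 4, 3 and 1 in the 3 mutants.

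*MIR319A*, whose miRNA targets *TCP* genes of leaf growth, had 0.133, 0 and 0.0453 CPM in WT, 0.857, 1.02 and 1.07 in *se-1*, 0.0734, 0.181 and 0.107 in *cbp20*, and 0.259, 0.233 and 0.206 in *cbp80*. Only *se-1* stood clearly apart, by 3.89 on the log2 scale (edgeR adjusted p = 0.000161), or by 5.08 without the first WT library. *MIR319A* also passed the filter only through the *se-1* libraries, so its p-value is no support by itself. *MIR319B*, which encodes the same miRNA, had 1 to 5 counts in every library and no group above another. *MIR166B*, whose miRNA targets HD-ZIP III genes of leaf polarity, had 3 counts over the WT libraries and 67, 105 and 82 in the *se-1* libraries, 13, 22 and 9 in *cbp20*, and 20, 23 and 15 in *cbp80*. The ratio to WT was 87.3 in *se-1* (counting interval 29.5 to 426), 13.7 in *cbp20* (4.40 to 69.1) and 18.5 in *cbp80* (6.03 to 92.5). In *cbp20* *MIR166B* did not pass the filter, and the fit without a filter called it higher there (edgeR adjusted p = 0.000218). Without the second WT library, which held 2 of the 3 counts, its fitted log2 fold changes went from 6.35 to 7.22 in *se-1* and from 4.13 to 5.00 in *cbp80*. *MIR166A* had 0, 0.0949 and 0.0906 CPM in WT against 1.11, 1.66 and 1.28 in *se-1*, 0.147, 0.271 and 0.268 in *cbp20*, and 0.259, 0.326 and 0.288 in *cbp80*, and was called in *se-1* with a log2 fold change of 4.35. In the fit without a filter *MIR166A* was also called higher in *cbp80*, by 2.15 (edgeR adjusted p = 0.0354), and not in *cbp20*. Of the *MIR165* loci, which differ from *MIR166* by 1 base of the miRNA, *MIR165A* had 0 to 13 counts per library and *MIR165B* 0 in all 12, with no overlapping gene annotated.

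miR390 and miR173 start the production of trans-acting siRNAs, from *TAS3* and from *TAS1* and *TAS2* transcripts. *MIR390A* (AT2G38325, chromosome 2 from 16061954 to 16062060) had no count in WT, and 2.32, 2.36 and 1.93 CPM in *se-1*, 0.624, 0.677 and 0.430 in *cbp20*, and 0.985, 1.3 and 0.576 in *cbp80*. Against a floor of 3 counts over the WT libraries it was at least 45.7-fold higher in *se-1*, at least 12.5-fold in *cbp20* and at least 19.5-fold in *cbp80*. It was called in *se-1* (edgeR adjusted p = 2.84e-06) and in *cbp80* (7.70e-05). In *cbp20* it did not pass the filter, and the fit without a filter called it higher there (edgeR adjusted p = 1.95e-05). *MIR173* was the only locus of those that rose with its highest mean in *cbp80*, where it had 0.674, 0.559 and 0.452 CPM, against 0.353, 0.324 and 0.588 in *se-1*, 0.257, 0.316 and 0.161 in *cbp20* and a single count in WT. Against WT it passed the filter only in *cbp80*, where it was called, with a ratio of 34.5 (counting interval 5.81 to 1400). The ratio was 25.8 in *se-1* (4.22 to 1058) and 15.9 in *cbp20* (2.49 to 665). In the fit without a filter it was called higher in these mutants too (edgeR adjusted p = 0.000901 and 0.0161). The *cbp80* and *se-1* libraries overlapped, and their difference of -0.41 for *se-1* had an interval from -1.23 to 0.41.

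Of the families found in Arabidopsis and its relatives, *MIR158A* had 0.222, 0.0949 and 0.227 CPM in WT, 6.45, 9.52 and 6.95 in *se-1*, 5.06, 3.79 and 4.99 in *cbp20*, and 5.49, 7.55 and 8.02 in *cbp80*. All mutant libraries were far above WT, with log2 fold changes of 5.35, 4.62 and 5.23 (standard errors 0.29, 0.29 and 0.28), and it was the locus of largest change in both CBC mutants among those with more than 3 counts in WT. *MIR161*, whose miRNAs target pentatricopeptide repeat genes, had 2 counts in WT, both in 1 library, and 2.12, 1.39 and 2.35 CPM in *se-1*, 0.404, 0.767 and 0.591 in *cbp20*, and 1.09, 0.932 and 0.863 in *cbp80*. Its ratios to WT were 59.8 in *se-1* (counting interval 16.2 to 499.6), 18.3 in *cbp20* (4.73 to 156.1) and 29.7 in *cbp80* (7.89 to 250.8), all 3 called. *MIR400* had 0.0444, 0.142 and 0.0906 CPM in WT, 1.01, 0.462 and 1.28 in *se-1*, 0.110, 0.271 and 0.268 in *cbp20*, and 0.466, 0.373 and 0.247 in *cbp80*, and was called in *se-1* with a log2 fold change of 3.23. In the fit without a filter *MIR400* was also called higher in *cbp80*, by 1.89 (edgeR adjusted p = 0.0317), and not in *cbp20*. *MIR160A*, whose miRNA targets auxin response factor genes, had 2 counts in WT and 34, 9 and 14 in the 3 mutants, and *MIR160B* 2 to 10 counts per library. *MIR398B*, of the copper-regulated family, had 0 counts in all libraries, since its whole exon lies within exons of AT5G14550 on the other strand.

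For tests between mutants, edgeR was fitted to all 12 libraries at once, and 25 loci had enough counts. Between *se-1* and *cbp20*, 19 loci were higher in *se-1* and 0 lower, where 7.40% of all genes were called higher and 6.24% lower. Between *se-1* and *cbp80*, 15 were higher in *se-1* and 0 lower (5.49% and 5.95%). Between *cbp80* and *cbp20*, 6 were higher in *cbp80* and 0 lower (5.99% and 4.17%). In none of these comparisons was a locus lower at an unadjusted p under 0.05, and DESeq2 called 0 lower. *MIR159A*, *MIR166A*, *MIR319A*, *MIR393B* and *MIR400* passed the filter of this fit only with the *se-1* libraries, so that *se-1* had to be higher there. Of the 22 loci that rose in at least 1 mutant, 21 had their highest mean in *se-1*, with *MIR173* as the exception, and all 22 had a higher mean in *cbp80* than in *cbp20*. Every *se-1* library was above every *cbp20* library at 22 of the 22 (background 14.9%), every *se-1* above every *cbp80* library at 16 (14.8%) and every *cbp80* above every *cbp20* library at 11 (14.4%). The 22 loci were taken for being called higher than WT. With the filter, the 5 above and *MIR172B* were called against WT in *se-1* only. These counts are therefore fixed in part by the choice and serve as a description.

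**Figure D4:**
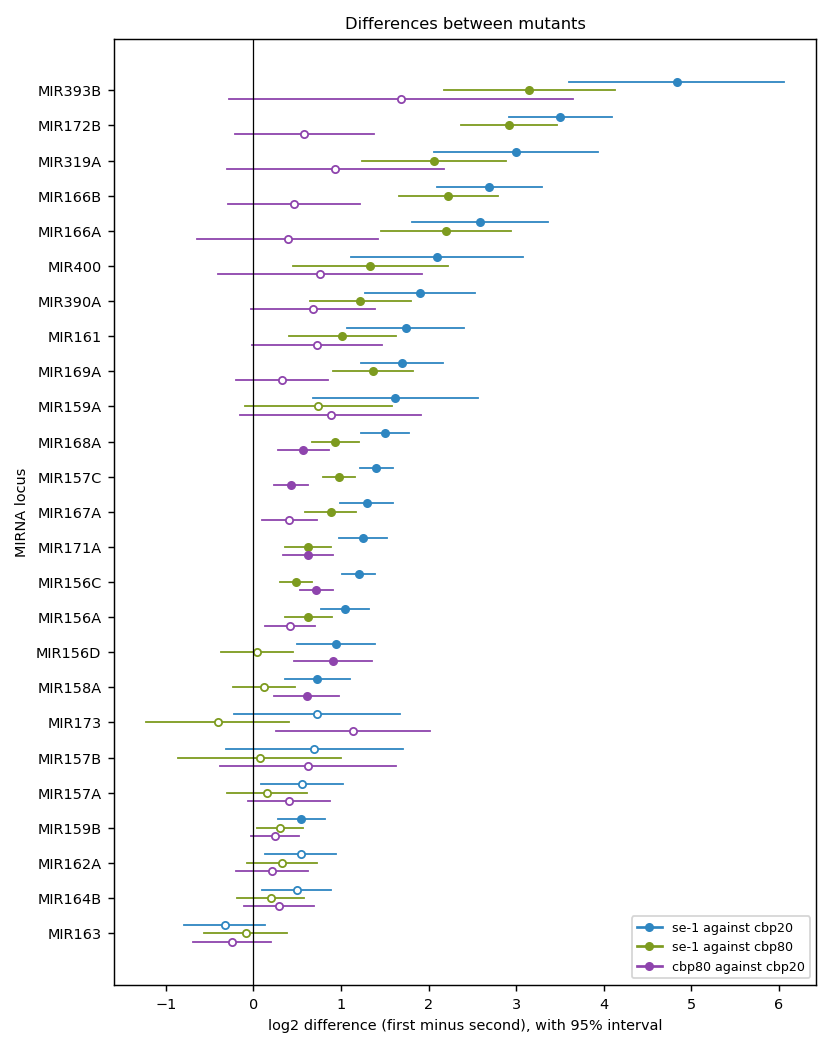
Log2 differences between mutants (horizontal axis) with 95% intervals for the 25 loci tested in the fit of all 12 libraries, ordered by the difference of *se-1* from *cbp20*. Filled points were called and open points were not. *MIR393B*, *MIR172B*, *MIR319A*, *MIR166B* and *MIR166A* lead, with at least 2.06 to both CBC mutants.

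The largest of these differences were at *MIR393B* and 4 other loci. *MIR393B* was higher in *se-1* than in *cbp20* by 4.83 on the log2 scale (standard error 0.58) and than in *cbp80* by 3.15 (0.46). The first value is fitted to 0, 1 and 1 counts in the *cbp20* libraries, under the floor of 3 counts. *MIR172B* followed with 3.50 (0.28) and 2.92 (0.26), *MIR319A* with 3.00 and 2.06, *MIR166B* with 2.69 and 2.23, and *MIR166A* with 2.59 and 2.20. All 10 differences had edgeR adjusted p-values of at most 0.00227 and kept their call in every alternative in which they were tested. For *MIR393B*, *MIR319A* and *MIR166A*, which passed the filter only with the *se-1* libraries, these p-values and calls are no support. Without any 1 *se-1* library these loci missed the filter. Without the first *cbp20* library, which had no count of *MIR393B*, its difference from *cbp20* was 4.19. Next came *MIR400*, *MIR390A*, *MIR161*, *MIR169A*, *MIR159A*, *MIR168A*, *MIR157C*, *MIR167A*, *MIR171A*, *MIR156C* and *MIR156A*, higher in *se-1* than in *cbp20* by 1.04 (*MIR156A*) to 2.1 (*MIR400*). The call of *MIR159A* was lost with DESeq2 and without any of 4 libraries (highest adjusted p = 0.119), and the difference of *MIR400* from *cbp80*, 1.33 with an adjusted p of 0.0493, was lost in 7 of 9 alternatives. That of *MIR161* from *cbp80*, 1.02, was lost without any of 5 libraries (highest adjusted p = 0.117).

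At other loci *se-1* and *cbp80* were close. *MIR156D*, *MIR157A*, *MIR158A* and *MIR164B* differed between *se-1* and *cbp80* by 0.04 to 0.20, none of them called, and the upper ends of their intervals lay between 0.45 and 0.61. *MIR159B* was higher in *se-1* than in *cbp20* by 0.55 and than in *cbp80* by 0.30, the first called and the second not. The 6 loci higher in *cbp80* than in *cbp20* were *MIR156D* (0.91), *MIR156C* (0.72), *MIR171A* (0.62), *MIR158A* (0.61), *MIR168A* (0.57) and *MIR157C* (0.43). Of these, *MIR156D*, *MIR168A* and *MIR158A* lost the call without certain single libraries, where edgeR's adjusted p rose to 0.0642, 0.0725 and 0.145, and *MIR156C*, *MIR157C* and *MIR171A* kept it throughout.

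The length and the base composition of the counted exon were set beside the changes. Across the loci tested, which are not independent replicates and share their libraries, Spearman's rho between exon length and log2 fold change was -0.28 in *se-1* (23 loci), -0.32 in *cbp20* (16) and -0.60 in *cbp80* (18), and between GC content and log2 fold change 0.01, 0.06 and -0.14. *MIR163*, the longest, is among these points.

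Genes next to the loci were examined because the counted exon is shorter than the primary transcript and the counting ignored strand. Of the loci higher in *se-1*, 12 have an annotated gene that overlaps or holds them or lies within 1000 bases. Of these genes, 11 of 12 tested were higher in *se-1* and 0 lower, where 17.6% of all tested genes were higher. By the 9 loci higher in *cbp20* that have such a gene, 8 of 9 tested were higher in *cbp20* (10.2% of all tested genes). By the 10 such loci in *cbp80*, 9 of 10 were higher in *cbp80* (20.1%), with 0 lower in either mutant. AT2G08100, AT5G00790, AT3G61898, AT3G13404 and AT3G13403, given below, did not have 10 counts in every WT library. They passed the filter only with the help of mutant libraries, so these counts are fixed in part by it and serve as a description. AT4G06880, an lncRNA gene 406 bases from *MIR168A* on the other strand, had 1.91, 2.32 and 2.81 CPM in WT, 53.4, 53.7 and 57.4 in *se-1*, 18.1, 20.8 and 24.5 in *cbp20*, and 30.7, 33.1 and 30.5 in *cbp80*. Its order of genotypes was that of *MIR168A*, with log2 fold changes of 4.55, 3.16 and 3.74. *IQD20*, 479 bases from *MIR171A* and also on the other strand, went from 1.95 to 2.89 CPM in WT to 23.2 to 23.9 in *se-1*, 11.3 to 13.4 in *cbp20* and 14.2 to 15.5 in *cbp80*. Whether such pairs are read from 1 transcript or from several was not tested.

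**Figure D5:**
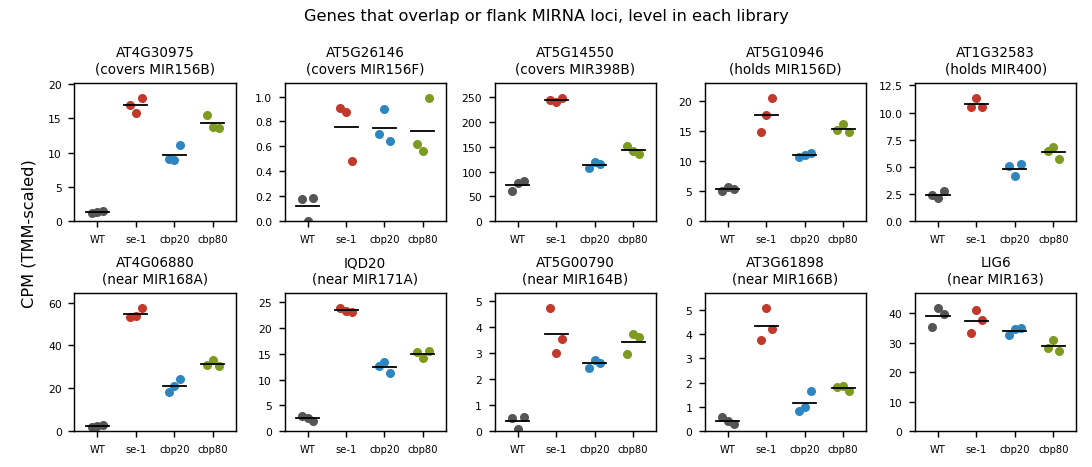
Level in CPM (vertical axes, each from 0) of 10 genes that cover, hold or flank *MIRNA* loci, with 1 point per library, 3 per genotype, and a line at their mean. WT is lowest in every panel but that of *LIG6*, next to *MIR163*, where its points overlap those of *se-1* and lie above those of *cbp20* and *cbp80*.

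Other flanking genes rose too. AT2G08100 by *MIR156A* had log2 fold changes of 2.83, 2.06 and 2.59 in *se-1*, *cbp20* and *cbp80*, AT5G00790 by *MIR164B* 3.28, 2.75 and 3.16, and AT3G61898 by *MIR166B* 3.34, 1.38 and 2.04. AT3G13404 and AT3G13403 by *MIR169A* rose by 2.83 and 3.33 in *se-1*, 1.84 and 2.18 in *cbp20*, and 1.92 and 2.40 in *cbp80*. *ASD1*, an arabinosidase gene next to *MIR158A* with 58.4 to 65.5 CPM in WT, changed far less than the locus, by 0.67, 0.38 and 0.52. AT1G08847, 224 bases from *MIR157A*, was higher in *se-1* only, by 0.69, and AT1G32580 near *MIR400* was not called in any mutant. AT3G10750 by *MIR158A*, AT1G05377 by *MIR159B*, AT3G08595 by *MIR393B* and *MIR5654* by *MIR400* had 0 to 9 counts per library and were not tested.

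*MIR156D* and *MIR400* lie within introns of the genes AT5G10946 and AT1G32583 on the same strand. Counts at these loci do not separate unspliced RNA of the host from a transcript of the locus. The host of *MIR156D* had log2 fold changes of 1.72, 1.04 and 1.52, below the 3.37, 2.43 and 3.33 of the locus inside it. The host of *MIR400* had 2.16, 1.00 and 1.39, with 2.13 to 2.76 CPM in WT and 10.5 to 11.3 in *se-1*. Of the genes by the tested loci that were not called higher, *NF-YB12* near *MIR162A* was not called in any mutant. *LIG6*, a DNA ligase gene 284 bases from *MIR163*, was lower in *cbp80*, with a log2 fold change of -0.43, and not called in the others.

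The 3 genes whose exons cover loci without counts were named after their values were seen. AT4G30975, an ncRNA gene on the strand of *MIR156B*, had 28 to 31 counts in the WT libraries and 336 to 342 in those of *se-1*, with log2 fold changes of 3.65, 2.84 and 3.41, all called. AT5G26146, an lncRNA gene over *MIR156F*, had 0 to 4 counts in WT and 9 to 24 in the mutants, and was called in *cbp20* (2.57) and *cbp80* (2.54) and not tested in *se-1*. It passed the filter only through the mutant libraries, so these calls are no support by themselves. AT5G14550, a protein-coding gene on the strand opposite *MIR398B*, had 61.3 to 80.6 CPM in WT and 241.2 to 248.4 in *se-1*, with log2 fold changes of 1.74, 0.64 and 0.97. Counts of these genes do not separate their own transcripts from those of the *MIRNA* loci inside them.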

How the data were processed

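Before deposit, the authors took out rRNA and tRNA (Bowtie2 2.1.0), mapped the remaining reads on TAIR10 (TopHat2 2.1.1) and obtained gene counts of read pairs from featureCounts 1.5.0-p3. By its command line, strand was ignored, and pairs with several alignments or on several genes were not counted. The deposited values are raw counts, without normalization, for 32833 genes in 12 libraries. The authors' DESeq2 1.14.1 tables of fold changes and p-values were not used.

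Counts were tested with edgeR 4.0.16 in R 4.3.3 as described, on the 6 libraries of a mutant and WT, or on all 12 between mutants. Standard errors were worked back from the F statistic and are approximate. Levels are CPM with TMM factors over all 12 libraries. Ratios to WT totals of 1 to 3 counts are per total of counted pairs with exact binomial 95% intervals. Library grouping followed the labels. Replicates of a genotype differed by more than counting noise (chi-square of 4.59 to 10.5 per gene), and p-values measure the spread between pools of plants. The test was checked on simulated counts. Gene types, neighbours and mature miRNAs came from RefSeq TAIR10.1, in which 99.95% of 32548 shared genes have the same ends. DESeq2 1.42.0, other scalings, no filter, a replicate block and leaving out each library were the alternatives.

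The loci and the lists of pathway and marker genes were chosen with earlier results of these data known. All 39 loci are accounted for by name, values per library are given for those called, and of other genes the pathway list and annotated genes overlapping or within 1000 bases of a called locus are named.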

Additional observations from a re-analysis of the deposited data

How the results depend on the processing

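The cause of each change below was not tested unless stated. No direction reversed in any alternative. RLE size factors, library size only, DESeq2 and a replicate block gave the same counts of loci called against WT as TMM, 22, 13 and 17 in *se-1*, *cbp20* and *cbp80*, and without a filter 29, 17 and 25 were called because more loci were tested. Leaving out each library in turn gave 10 to 22 loci called in *se-1* (9 to 21 higher, 1 to 1 lower), 9 to 14 in *cbp20* (9 to 14 higher, 0 to 1 lower) and 10 to 17 in *cbp80* (9 to 16 higher). The low ends follow from the filter: with 2 mutant libraries left, only 11 loci reach 10 counts in 3 libraries. With genes kept at 10 counts in 2 libraries, an alternative chosen after seeing the data, the ranges were 22 to 24 in *se-1* (21 to 23 higher), 13 to 16 in *cbp20* (13 to 16 higher, 0 to 1 lower) and 17 to 19 in *cbp80* (16 to 18 higher). Between mutants the ranges were 13 to 19 for *se-1* against *cbp20*, 10 to 13 for *se-1* against *cbp80* (15 with all libraries) and 3 to 6 for *cbp80* against *cbp20*, with 3 without *cbp20* replicate 1 or *cbp80* replicate 2.

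The design text sets libraries of the same number against each other. Deviations of same-numbered libraries from their genotype means correlated by -0.07 to 0.15, and not every pair of any comparison passed 0.1, so the numbers were not taken as pairs. With a replicate block, 20, 14 and 7 loci were called between *se-1* and *cbp20*, *se-1* and *cbp80*, and *cbp80* and *cbp20*. *MIR162A* between *se-1* and *cbp20* passed with the block (edgeR adjusted p = 0.0365) and with only the 6 libraries concerned (0.0496), where the fit of 12 gave 0.0725. Of the 15 loci not tested against WT with the filter, which had at most 15 counts in a library, *MIR156B*, *MIR156F* and *MIR398B* lie within exons of other genes, where pairs are not counted. The rest had too few counts to pass the filter, and the cause of their low counts was not tested. *MIR159A*, *MIR161* and *MIR173* had WT counts in 1 library only, and without it their WT level is 0, so that their fitted changes rest on the prior count.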

Other observations

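The other 286 annotated *MIRNA* genes of the table were set beside the 39 loci as a count. In *se-1*, 31 of them had enough counts for a test, and 23 were higher and 0 lower, with a median log2 fold change of 1.63 beside about 0.00 for all tested genes. In *cbp20*, 7 of 18 were higher and 0 lower, with a median of 0.49, and in *cbp80* 13 of 22 were higher and 0 lower, with a median of 0.87. Of all tested genes, 17.6%, 10.2% and 20.1% were higher in *se-1*, *cbp20* and *cbp80*, and 16.2%, 9.48% and 18.6% lower. Setting the 1 gene without a WT count at its bound left the median in *se-1* at 1.63. Of the 13 with at least 10 counts in every WT library, 9, 4 and 6 were higher in *se-1*, *cbp20* and *cbp80*. The other tested genes passed the filter with the help of mutant libraries, so the counts above are fixed in part by it. No difference between these genes and the 39 loci was tested.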
